A study of Schizosaccharomyces pombe with 16 samples.

Results

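The 9 genes described here are the fission yeast genes urg1, urg2, urg3, fur4, uga1, cao1, glt1, gdh1 and gln1, which encode enzymes and a permease for taking nitrogen from uracil, GABA and amines and for building it into glutamate and glutamine. They were chosen by symbol in the platform's probe-to-gene annotation, with no measured value in the rule but with earlier results of these data known. All 9 were measured, each by 1 probe set of 4999 on the array. That annotation gave a single gene for 2917 probe sets and several genes for 20, while 2062 were not in it and stayed unnamed here.

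Nitrogen enters metabolism through ammonium. Gdh1, the NADP-dependent glutamate dehydrogenase, fixes ammonium into glutamate, gln1 encodes glutamine synthetase, and glt1 encodes glutamate synthase, which uses glutamine to make glutamate. The urg genes are relatives of genes for uracil breakdown known from the budding yeast Lachancea kluyveri. When ammonium is short, fungi switch on permeases and enzymes that release nitrogen from poorer sources, a response known as the relief of nitrogen catabolite repression. Fission yeast without a mating partner then leaves the division cycle and enters quiescence, the subject that the study's title names.

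The study measured polyadenylated RNA of Schizosaccharomyces pombe on 16 Affymetrix arrays. The mutant strain had the temperature-sensitive allele fcp1-452 of the gene for the phosphatase of the RNA polymerase II carboxy-terminal domain, and the wild-type strain was L972. The 8 groups were fcp1-452 without nitrogen (-N) at 37 °C, fcp1-452 -N at 26 °C, wild type -N at 37 °C, wild type -N at 26 °C, fcp1-452 with nitrogen (+N) at 37 °C, fcp1-452 +N at 26 °C, wild type +N at 37 °C and wild type +N at 26 °C. Set 1 held 1 array of each group, and set 2 held replicates 1 and 2 of the 4 +N groups. All cultures were in the synthetic minimal medium EMM2, +N cultures were in log phase per the labels, and -N cultures were in EMM2 lacking nitrogen. How long cultures were heated or starved is not stated in those labels. The mutant is represented by a single allele, and nothing in the labels says that replicates were separate cultures, so p-values measure sample-to-sample spread that may be only technical.

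The deposited values were ratios of each probe set to its own median over the 8 arrays of a set, so they can be compared between arrays of 1 set and not between genes or between sets. In each +N group, replicate 1 of set 2 and the array of set 1 differed by far less than replicates 1 and 2 did (SD of the log2 difference 0.0572 to 0.0742, and 0.214 to 0.381 when replicate 2 took the place of replicate 1). They were averaged and counted as 1 sample, which left 12 samples, 2 per +N group and 1 per -N group. The wild-type +N samples of replicate 1 stood apart in mfm2, an M-factor pheromone gene. Its log2 value was 5.16 at 37 °C and 5.24 at 26 °C there, against -3.14 to 0.40 in the other 6 +N samples, while 4 other M-cell genes ranged from -0.82 to 1.29 and 4 P-cell genes from -0.80 to 0.88. Of those M-cell genes, mfm1 was also higher in wild-type replicate 1 than in replicate 2 at both temperatures. At 37 °C its probe sets had 1.01 and 1.18 against 0.04 and 0.17. The P-cell genes map1 and sxa1 were higher there as well, while mfm3, map2 and map3 were lower. Among the 9 genes the mean log2 difference between wild-type replicates 1 and 2 ran from -0.24 (urg3) to 0.72 (urg2). The part of that difference between the replicates in the results was not tested, and results of the 9 genes are given with and without those samples where a call changes. The fcp1 transcript itself differed by -0.24 ± 0.12 at 37 °C and by -0.0048 ± 0.118 at 26 °C on the log2 scale between fcp1-452 and wild type with nitrogen, neither past the threshold (limma adjusted p = 0.169 and 1), and a temperature-sensitive allele need not change its own transcript.

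**Figure D1:**
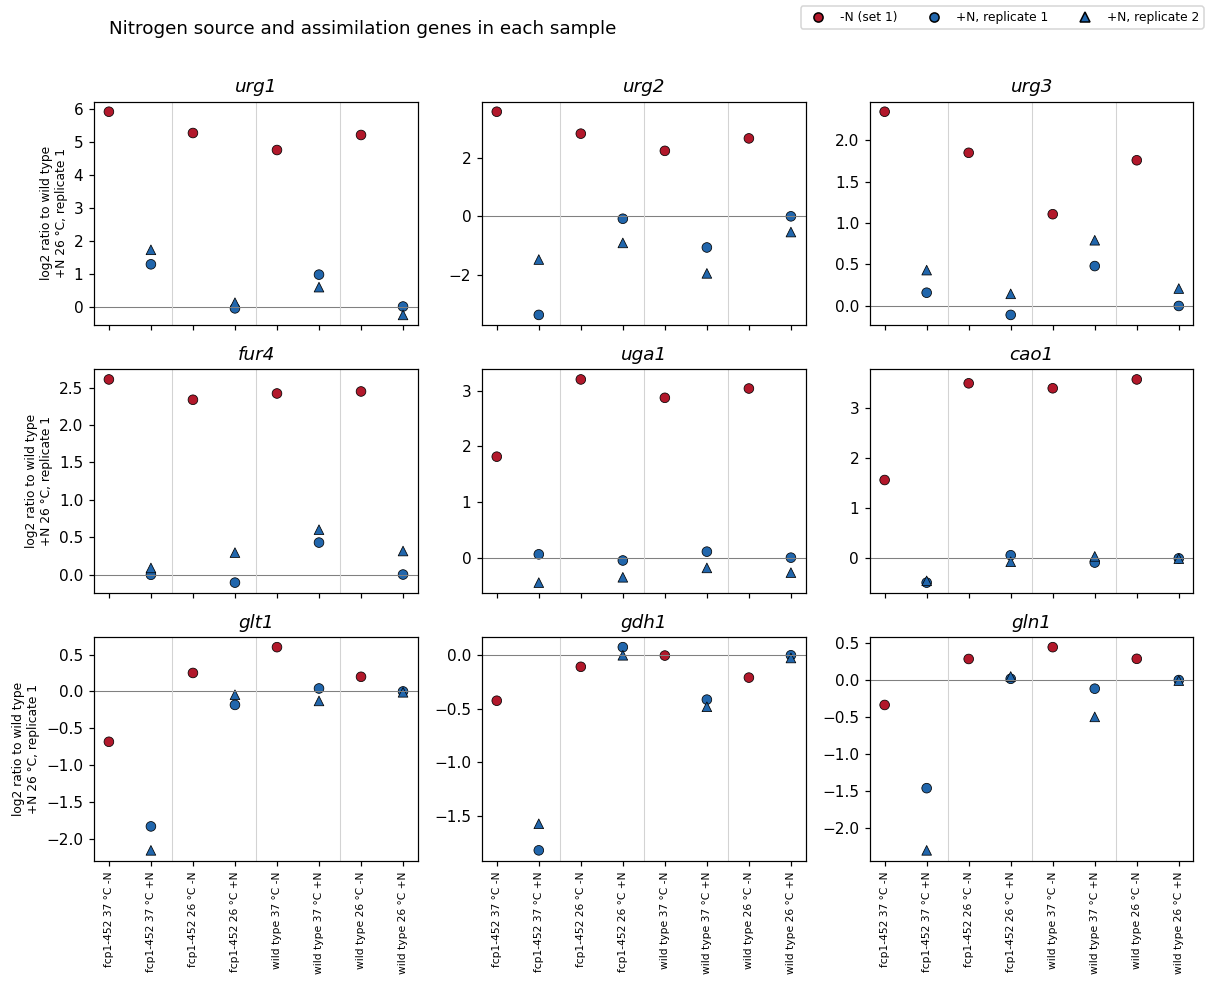
Log2 ratio of the 9 genes in each of the 12 samples, relative to wild type +N at 26 °C, replicate 1 (vertical axis, separate scale per gene), by strain, temperature and nitrogen (horizontal axis). Red points are -N samples, blue circles and triangles are +N replicates 1 and 2. In urg1, urg2, urg3, fur4, uga1 and cao1 every -N point lies above every +N point, while in glt1, gdh1 and gln1 the lowest points are those of fcp1-452 +N at 37 °C. The share of all probe sets with either pattern is not given here.

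The genes for alternative sources were several fold higher without nitrogen, and the 3 assimilation genes differed much less. Averaged over the 4 combinations of strain and temperature, all 9 genes were called higher without nitrogen and none lower, where 33.9% of all probe sets were called higher and 38.2% lower (limma, Benjamini-Hochberg adjusted p under 0.05 over 4999 probe sets). Each -N group is 1 array and took its spread from the +N groups. The -N titles carry no replicate number. Set 1 was counted as replicate 1 because its +N arrays agree so closely with that replicate, and on that basis the fit sets the -N arrays against replicate 1 with nitrogen. In bulk RNA, fewer cells of a kind and less RNA per cell cannot be told apart.

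Urg1 and urg2 had the largest differences of the 9 genes, followed by cao1, uga1, fur4 and urg3. Urg1, named for its regulation by uracil and related to GTP cyclohydrolases, had set 1 ratios of 4.10 in fcp1-452 at 37 °C, 2.62 in fcp1-452 at 26 °C, 1.83 in wild type at 37 °C and 2.51 in wild type at 26 °C without nitrogen. With nitrogen its ratios were 0.167, 0.0647, 0.141 and 0.0648 in the same order of strain and temperature. The lowest starved array thus stood far above the highest fed one. Averaged over the conditions, urg1 was 26.6-fold higher in -N samples (log2 4.73 ± 0.15, adjusted p = 1.98e-05). Urg2, related to uracil phosphoribosyltransferases, had -N ratios of 4.20, 2.49, 1.65 and 2.23 and +N ratios of 0.033, 0.33, 0.166 and 0.346 in that order. Its -N and +N arrays did not overlap either, and the share of all probe sets without such overlap is not given here. The low value of 0.033 in fed fcp1-452 at 37 °C gave a log2 difference of 6.99 in that condition, against 2.69 to 3.32 in the others. Urg2 averaged 3.98 ± 0.49 on the log2 scale (adjusted p = 0.000713), the largest standard error of the 9 genes.

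Urg3, a gene of unassigned enzyme activity next to them, had -N ratios of 2.87, 2.04, 1.22 and 1.91 and +N ratios of 0.631, 0.539, 0.781 and 0.561. Wild type at 37 °C was lowest among the starved arrays and highest among the fed ones, so its groups came nearest to each other there. Urg3 averaged 1.63 ± 0.07 (log2, adjusted p = 3.14e-05). Fur4, the uracil permease, had -N ratios of 1.92, 1.59, 1.69 and 1.72 and +N ratios of 0.321, 0.293, 0.41 and 0.314. It was the most even of the induced genes over the 4 conditions, with log2 differences of 2.04 to 2.58 and an average of 2.38 ± 0.08 (adjusted p = 2.38e-05).

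Uga1, the GABA transaminase, and cao1, a copper amine oxidase, were induced as well, but least in the mutant at 37 °C. Uga1 had -N ratios of 1.53 in fcp1-452 at 37 °C, 4.01 in fcp1-452 at 26 °C, 3.19 in wild type at 37 °C and 3.58 in wild type at 26 °C, and +N ratios of 0.469, 0.411, 0.458 and 0.44. Cao1 had -N ratios of 1.48, 5.63, 5.25 and 5.94 in that order, and +N ratios of 0.361, 0.521, 0.467 and 0.505. In both genes 3 of the 4 starved arrays lay close together and the array of fcp1-452 at 37 °C lay well below them, still above every fed array. The averages were 2.70 ± 0.08 for uga1 (adjusted p = 1.78e-05) and 3.13 ± 0.08 for cao1 (log2, adjusted p = 1.73e-05).

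The assimilation genes were called higher on average by small amounts, and 1 of them not in every condition. Glt1 had -N ratios of 0.606, 1.16, 1.48 and 1.12 and +N ratios of 0.258, 0.885, 1.02 and 0.983 for fcp1-452 at 37 and 26 °C and wild type at 37 and 26 °C. Gdh1 had -N ratios of 0.831, 1.04, 1.11 and 0.965 and +N ratios of 0.321, 1.15, 0.837 and 1.12, so at 26 °C its starved arrays were slightly below the fed ones in both strains. Gln1 had -N ratios of 0.798, 1.23, 1.37 and 1.23 and +N ratios of 0.381, 1.01, 0.917 and 0.99. For all 3 genes the widest gap between starved and fed arrays was in fcp1-452 at 37 °C, where the fed array was low. The averages were 0.59 ± 0.10 for glt1 (adjusted p = 0.00256), 0.35 ± 0.09 for gdh1 (adjusted p = 0.0117) and 0.56 ± 0.16 for gln1 (log2, adjusted p = 0.0216). Without both wild-type +N samples of replicate 1 these calls were lost (glt1 0.0647, gdh1 0.131 and gln1 0.198 as adjusted p), and without both of replicate 2 the gdh1 call was lost (adjusted p = 0.0697). The gln1 call was also lost when fcp1-452 +N 26 °C replicate 1 (adjusted p = 0.0807), wild type +N 37 °C replicate 1 (0.0600) or wild type +N 26 °C replicate 1 (0.0804) was left out. The calls of the other 6 genes were kept in all 15 alternatives.

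**Figure D2:**
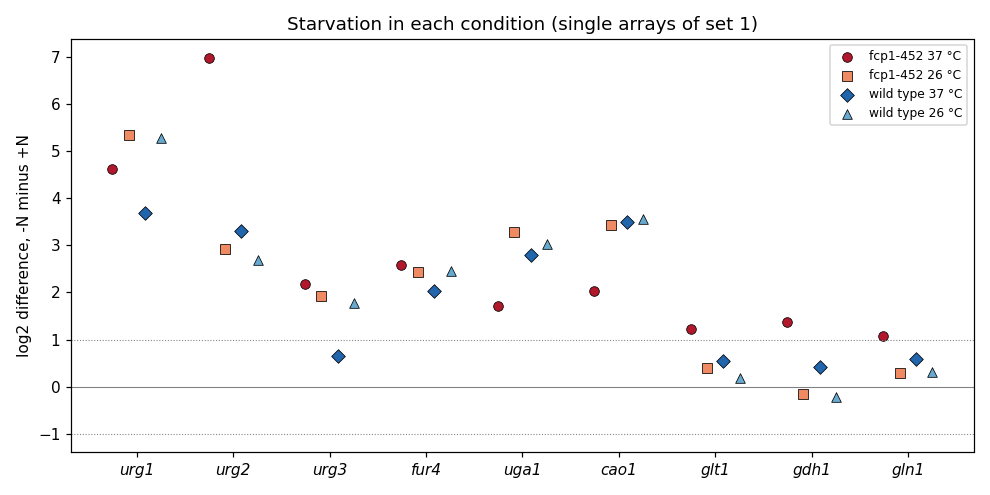
Log2 difference between -N and +N arrays of set 1 for each gene (horizontal axis) in fcp1-452 at 37 °C, fcp1-452 at 26 °C, wild type at 37 °C and wild type at 26 °C, 1 array per group and so no error bar. Dotted lines mark 2-fold. The 6 genes for alternative sources lie above 1 in every condition except urg3 in wild type at 37 °C (0.64), and glt1, gdh1 and gln1 pass 1 in fcp1-452 at 37 °C only.

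Counted condition by condition at 2-fold or more, with no test since each -N group is 1 array, 9 of the 9 genes were higher without nitrogen in fcp1-452 at 37 °C (20.6% of all probe sets were), 6 in fcp1-452 at 26 °C (12.9%), 5 in wild type at 37 °C (13.9%) and 6 in wild type at 26 °C (12.6%). No member was 2-fold lower, where the shares of all probe sets were 18.8%, 15.5%, 14.7% and 14.3% in the same order of conditions. The 6 genes at 26 °C were the same in both strains, namely urg1, urg2, urg3, fur4, uga1 and cao1. The size of the induction at 26 °C differed little between the strains: 5.34 in fcp1-452 and 5.28 in wild type for urg1, 3.28 and 3.02 for uga1, and 3.43 and 3.56 for cao1 on the log2 scale.

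Whether the response to starvation differed between strains was tested on the average of both temperatures. Urg3 was called higher (0.88 ± 0.12, adjusted p = 0.0154; 8.84% of all probe sets were) and cao1 lower (-0.73 ± 0.13, adjusted p = 0.0242; 8.54% of all probe sets). At 26 °C the single arrays of the strains lay close together, with 1.92 in fcp1-452 and 1.77 in wild type for urg3, and 3.43 and 3.56 for cao1. At 37 °C they were apart, with 2.19 in fcp1-452 and 0.64 in wild type for urg3, and 2.04 and 3.49 for cao1, a contrast between the temperatures that was not tested. Both calls rested on few samples: each was kept in 5 of 15 alternatives, with adjusted p from 0.00609 to 0.283 for urg3 and from 0.00384 to 0.491 for cao1. Without both wild-type +N samples of replicate 1 the adjusted p was 0.195 for urg3 and 0.237 for cao1, and without both of replicate 2 it was 0.239 and 0.265. The calls were also lost with no replicate block (0.189 and 0.150), under quantile normalization (0.283 and 0.491) and without any single one of fcp1-452 +N 26 °C, wild type +N 37 °C and wild type +N 26 °C samples, of either replicate.

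Whether the response differed between temperatures was tested on the average of both strains. At 37 °C the difference between -N and +N was larger than at 26 °C for glt1 (0.69 ± 0.17, adjusted p = 0.0263) and gdh1 (1.03 ± 0.15, adjusted p = 0.00683), where 19.3% of all probe sets were called in that direction. It was smaller for urg1 (-1.09 ± 0.26, adjusted p = 0.0253), urg3 (-0.48 ± 0.12, adjusted p = 0.0261), uga1 (-0.83 ± 0.13, adjusted p = 0.00858) and cao1 (-0.81 ± 0.13, adjusted p = 0.00871), where 17.6% were. Gln1 had 0.88 ± 0.28 (adjusted p = 0.0549) and urg2 1.76 ± 0.84 (adjusted p = 0.152). For urg1 the starved level was not called different between the temperatures on the average of the strains (0.095 ± 0.215). Its fed level was higher at 37 °C, by 1.47 in fcp1-452 and by 0.91 in wild type, the latter not called. The strains did not contribute alike to these averages. In single arrays the response of urg3 was 2.19 at 37 °C and 1.92 at 26 °C in fcp1-452, against 0.64 and 1.77 in wild type, so it was smaller at 37 °C in wild type alone. That of cao1 was 2.04 at 37 °C and 3.43 at 26 °C in fcp1-452, against 3.49 and 3.56 in wild type. Both strains went the same way in the other called genes, by unlike amounts. In the same order uga1 had 1.71 and 3.28 against 2.80 and 3.02, and urg1 4.62 and 5.34 against 3.70 and 5.28. Glt1 had 1.23 and 0.39 against 0.54 and 0.18, and gdh1 1.37 and -0.15 against 0.41 and -0.22. None of the 6 calls was kept without both wild-type samples of replicate 1 (adjusted p from 0.0538 to 0.212) or of replicate 2 (from 0.0506 to 0.263). Those of cao1 and gdh1 were kept in all 13 other alternatives, and that of uga1 in 12, being lost with no replicate block (adjusted p up to 0.143). Those of urg1, urg3 and glt1 were kept in 8, 5 and 6 of 15 and each was lost without fcp1-452 26 °C replicate 2, wild type 37 °C replicate 1 or wild type 26 °C replicate 2.

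The starved strains were compared in single arrays at each temperature. At 37 °C, urg1 (log2 1.16), urg2 (1.35) and urg3 (1.24) were over 2-fold higher in starved fcp1-452 than in starved wild type, where 17% of all probe sets were, and uga1 (-1.06), cao1 (-1.83) and glt1 (-1.28) were over 2-fold lower, where 17.5% were. In these single arrays the 3 uracil genes with adjacent positions and the GABA and amine genes stood on opposite sides of wild type, although starvation raised both sets. On the average of both temperatures urg1 (0.61 ± 0.215) and urg2 (0.75 ± 0.69) were not called between the starved strains. Fur4 differed by 0.19, gdh1 by -0.42 and gln1 by -0.78. At 26 °C no gene of the 9 reached 2-fold, the differences ran from -0.11 (fur4) to 0.16 (urg2 and uga1), and 0.1% of all probe sets were 2-fold higher and 0.36% lower. The difference between the temperatures was not tested, since each starved group was 1 array. On the average of both temperatures, where the fit borrows its spread, urg3 was called higher in fcp1-452 (0.66 ± 0.10, adjusted p = 0.00613; 18.8% of all probe sets were), and uga1 (-0.45 ± 0.11, adjusted p = 0.0254), cao1 (-0.95 ± 0.11, adjusted p = 0.00395) and glt1 (-0.62 ± 0.14, adjusted p = 0.0198) were called lower, where 18.6% were. The cao1 call was kept in 14 of 15 alternatives and lost under quantile normalization (adjusted p = 0.173). Those of urg3 and glt1 were kept in 11, being lost with no replicate block, under quantile normalization and without both wild-type +N samples of either replicate (0.0639 each for urg3 and 0.0975 each for glt1). That of uga1 was kept in 4. It was lost with no replicate block (0.292), under quantile normalization (0.286) and with 16 arrays and a set term. It was also lost without any single fcp1-452 +N 26 °C or wild-type +N sample, and without both wild-type samples of either replicate. None of the alternatives left out a -N array, so in this test leaving out samples changed only the spread.

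Within the starved mutant, uga1 (-1.39) and cao1 (-1.93) were over 2-fold lower at 37 °C than at 26 °C, where 17.1% of all probe sets were, and no member was 2-fold higher, where 19.1% were. In starved wild type no gene of the 9 changed by 2-fold between the temperatures, and 4.08% of all probe sets were higher and 1.68% lower. Its values ran from -0.65 (urg3) to 0.40 (glt1). On the average of both strains uga1 (-0.78 ± 0.11, adjusted p = 0.00366) and cao1 (-1.05 ± 0.11, adjusted p = 0.00181) were called lower at 37 °C without nitrogen, where 21.8% of all probe sets were, and none of the 9 genes higher, where 24.3% were. The cao1 call was kept in all 15 alternatives and that of uga1 in 14, being lost with no replicate block (adjusted p = 0.0788). None of these alternatives left out a -N array, so leaving out samples changed the spread and not the difference. The average hides the strain: in single arrays wild type contributed -0.17 (uga1) and -0.18 (cao1).

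**Figure D3:**
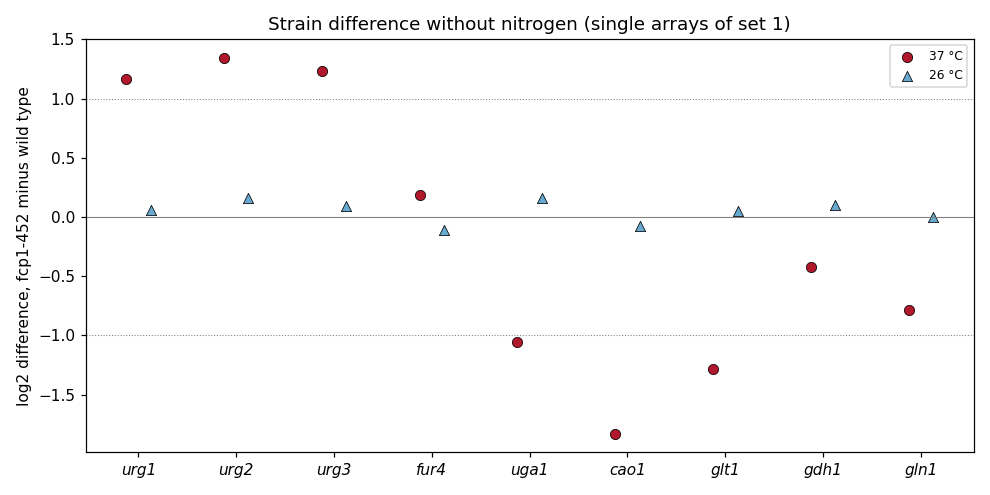
Log2 difference between fcp1-452 and wild type without nitrogen for each gene (horizontal axis) at 37 °C (red circles) and 26 °C (blue triangles), from single arrays of set 1 with no error bar. Dotted lines mark 2-fold. At 37 °C urg1, urg2 and urg3 lie above 1 and uga1, cao1 and glt1 below -1, while every 26 °C point lies between -0.11 and 0.16.

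With nitrogen, the 3 assimilation genes had the largest decreases among those called lower in the mutant at 37 °C. In set 2, replicates 1 and 2 of glt1 had ratios of 0.316 and 0.238 in fcp1-452 at 37 °C and 0.906 and 1.03 in fcp1-452 at 26 °C, against 1.07 and 0.971 in wild type at 37 °C and 1.05 and 1.05 in wild type at 26 °C. Gdh1 had 0.321 and 0.388 in fcp1-452 at 37 °C and 1.24 and 1.15 at 26 °C, against 0.866 and 0.827 in wild type at 37 °C and 1.15 and 1.13 at 26 °C. Gln1 had 0.361 and 0.21 in fcp1-452 at 37 °C and 1.06 and 1.07 at 26 °C, against 0.969 and 0.734 in wild type at 37 °C and 1.06 and 1.03 at 26 °C. In each gene both mutant samples at 37 °C lay below the other 6 samples, with no overlap. The share of all probe sets that separated in this way is not given here.

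In fcp1-452 at 37 °C against 26 °C the log2 differences were -1.88 ± 0.14 for glt1 (adjusted p = 0.00132), -1.73 ± 0.12 for gdh1 (adjusted p = 0.00128) and -1.92 ± 0.23 for gln1 (adjusted p = 0.00315), or 3.68-, 3.33- and 3.77-fold lower. These calls were kept in all 16 alternatives. Cao1 was called lower by a smaller amount (-0.46 ± 0.11, adjusted p = 0.0205), from ratios of 0.729 and 0.753 at 37 °C against 1.08 and 0.98 at 26 °C. That call was kept in 8 of 16 alternatives and was lost under quantile normalization (-0.25, adjusted p = 0.253), with no replicate block (0.0872), without fcp1-452 +N 26 °C replicate 1 (0.175) or replicate 2 (0.0912), without either wild-type +N 26 °C replicate (0.0537 each) and without both wild-type samples of either replicate (0.136 each). The 4 lowered genes compare with 22.1% of all probe sets.

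Urg1 was the only gene of the 9 called higher in the heated mutant, in a comparison where 17.8% of all probe sets were called higher. Its set 2 ratios were 1.86 and 2.55 in fcp1-452 at 37 °C and 0.754 and 0.838 in fcp1-452 at 26 °C, against 1.43 and 1.16 in wild type at 37 °C and 0.813 and 0.648 in wild type at 26 °C. The difference between 37 and 26 °C in the mutant was 1.47 ± 0.21 on the log2 scale (2.77-fold, adjusted p = 0.00527), kept in all 16 alternatives. The neighbouring uracil genes were not called. Urg2 had ratios of 0.191 and 0.711 in fcp1-452 at 37 °C and 1.87 and 1.06 at 26 °C, against 0.944 and 0.511 in wild type at 37 °C and 2.00 and 1.37 at 26 °C. The heated samples were below the unheated ones of their strain in both replicates, but the replicates of the heated mutant differed by over 3-fold, and the mutant's difference of -1.94 ± 0.69 did not pass the threshold (adjusted p = 0.0709). That value rested on which heated sample was used: it was -0.61 without replicate 1 (adjusted p = 0.0218) and -3.27 without replicate 2 (0.00127), both called lower with the smaller spread that remained, and -2.39 with 16 arrays and a set term (0.00560). Urg3 (0.28 ± 0.10, adjusted p = 0.0658), fur4 (-0.05 ± 0.12) and uga1 (0.01 ± 0.11) did not pass it either.

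**Figure D4:**
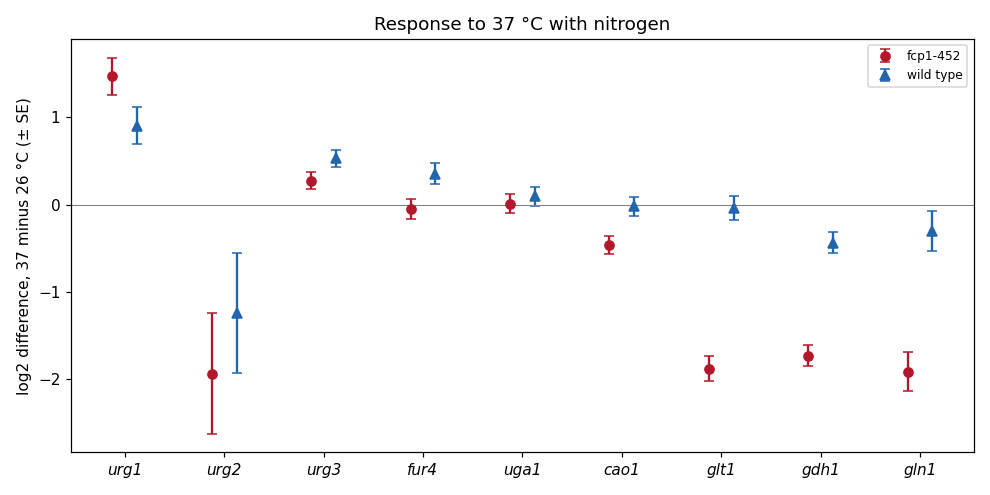
Log2 difference between 37 and 26 °C with nitrogen (vertical axis, mean ± SE from the limma fit, 2 samples per group) for each gene in fcp1-452 (red circles) and wild type (blue triangles). Glt1, gdh1 and gln1 lie between -1.92 and -1.73 in fcp1-452 and between -0.43 and -0.04 in wild type, and urg2 has the widest error bars.

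In wild type at 37 °C against 26 °C none of the 9 genes was called, and of all probe sets 0.32% were called higher and 0.22% lower. At an unadjusted p under 0.05, 4 of the 9 genes passed (1029 of all probe sets): urg1 (0.91 ± 0.21, adjusted p = 0.108), urg3 (0.53 ± 0.10, adjusted p = 0.0675), fur4 (0.36 ± 0.12, adjusted p = 0.174) and gdh1 (-0.43 ± 0.12, adjusted p = 0.137). Urg1, urg3 and gdh1 were called in wild type when the 16 arrays were fitted with a set term and duplicates not merged (adjusted p = 0.0135, 0.0424 and 0.0269) and under quantile normalization (0.0304, 0.0456 and 0.0431). Urg1, urg2, urg3 and gdh1 were called when either fcp1-452 +N 37 °C replicate was left out (adjusted p = 0.0343, 0.0209, 0.0261 and 0.0316).

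At 26 °C with nitrogen the strains lay close together in these genes. No member and none of the 4999 probe sets was called, either way (0% higher and 0% lower, with 0 of the 9 genes and 19 probe sets at an unadjusted limma p under 0.05). The differences ran from -0.23 ± 0.69 (urg2) to 0.16 ± 0.21 (urg1) on the log2 scale.

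At 37 °C with nitrogen, fcp1-452 was lower than wild type in glt1 (-1.95 ± 0.14, adjusted p = 0.00212), gdh1 (-1.25 ± 0.12, adjusted p = 0.00313), gln1 (-1.58 ± 0.23, adjusted p = 0.00673) and, by less than 2-fold, in urg3 (-0.34 ± 0.10, adjusted p = 0.0416), fur4 (-0.47 ± 0.12, adjusted p = 0.0290) and cao1 (-0.44 ± 0.11, adjusted p = 0.0270). These 6 genes compare with 19.2% of all probe sets. Urg1 was called higher (0.72 ± 0.21, adjusted p = 0.0485), where 14.7% of all probe sets were. The glt1 call was kept in all 16 alternatives. That of gdh1 was lost without both wild-type samples of replicate 2 (adjusted p = 0.0588) or of replicate 1 (0.0780), and that of gln1 in the same settings (0.0744 and 0.0730) and without wild type +N 37 °C replicate 1 (0.0570). The 4 smaller calls were kept in 5 or 6 of 16 alternatives. With no replicate block the adjusted p was 0.109 (urg1), 0.357 (urg3), 0.213 (fur4) and 0.114 (cao1). Under quantile normalization it was 0.0642, 0.0821, 0.168 and 0.294 in that order. The 4 calls were also lost without either fcp1-452 26 °C sample, any single wild-type sample or both wild-type samples of either replicate. That of urg3 was lost with 16 arrays and a set term as well, and those of urg1 and fur4 without fcp1-452 37 °C replicate 2.

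The test of the difference itself, the interaction of strain and temperature, was called lower for glt1 (-1.84 ± 0.20, adjusted p = 0.0151), gdh1 (-1.30 ± 0.17, adjusted p = 0.0167) and gln1 (-1.61 ± 0.32, adjusted p = 0.0370), where 7.68% of all probe sets were called lower. In the main fit the change from 26 to 37 °C in these 3 genes was thus more negative in fcp1-452 than in wild type. In wild type glt1 hardly changed (-0.04 ± 0.14) and none of the 3 was called. None of the 9 genes was called higher, where 4.12% of all probe sets were, and urg1 had 0.57 ± 0.30 (adjusted p = 0.262). The direction held in every alternative and the call in 6 of 16. With no replicate block the adjusted p was 0.0634 for glt1, 0.0968 for gdh1 and 0.172 for gln1, and the calls were also lost under quantile normalization (0.0863, 0.135 and 0.124) and without any single fcp1-452 26 °C or wild-type sample (up to 0.0968, 0.117 and 0.164). Without both wild-type samples of replicate 1 the adjusted p was 0.159 for glt1, 0.234 for gdh1 and 0.294 for gln1, and without both of replicate 2 it was 0.122, 0.206 and 0.197.

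Other genes of nitrogen metabolism gave the setting for the 9. Their calls are from the main fit, and how they fared in the alternatives is not given here. Some were near the threshold, such as gdh2 in the heated mutant (limma adjusted p = 0.038) and ura5 between the strains at 37 °C with nitrogen (0.043). With no replicate block, calls over all probe sets in that strain comparison numbered 340 beside 1698. The shares of all probe sets called, against which the counts of each list are to be read, were 33.9% higher and 38.2% lower in starvation, 17.8% higher and 22.1% lower in the heated mutant with nitrogen, and 14.7% higher and 19.2% lower in fcp1-452 against wild type at 37 °C with nitrogen. Of 11 genes for uptake of nitrogen sources, 9 were measured. Starvation raised 5 of them, led by isp5, an amino acid permease (4.28 ± 0.23), amt1, an ammonium transporter (2.998 ± 0.161), and isp4, an oligopeptide transporter (2.72 ± 0.11), and lowered 1, the amino acid transporter aat1 (-0.63 ± 0.16). The median log2 difference was 1.74, against -0.03 over all probe sets. In the heated mutant with nitrogen 6 were lower than at 26 °C and none higher, led by the proline permease put4 (-4.47 ± 0.26), aat1 (-4.02 ± 0.23) and amt1 (-3.90 ± 0.23), with a median of -1.99 against -0.04. At 37 °C with nitrogen 5 were lower in fcp1-452 than in wild type, led by aat1 (-4.13 ± 0.23), put4 (-3.73 ± 0.26) and amt1 (-3.04 ± 0.23), and none was higher, with a median of -1.39 against -0.04.

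Of 16 genes for using other nitrogen sources, 9 were measured. Starvation raised 5, led by isp7, a gene of the 2-oxoglutarate-dependent dioxygenase family (2.96 ± 0.29), cao2, an amine oxidase relative (2.82 ± 0.14), and the urease gene ure2 (1.59 ± 0.07). It lowered 3, namely gcv1 (-0.89 ± 0.12) and gcv3 (-0.42 ± 0.14) of the glycine cleavage system and the ornithine transaminase gene car2 (-0.72 ± 0.08), and the median was 1.30. In the heated mutant isp7 (-3.60 ± 0.41), gcv1 (-2.70 ± 0.17) and gcv2 (-1.59 ± 0.19) fell, while gdh2, the NAD-dependent glutamate dehydrogenase (0.86 ± 0.24), and car2 (0.56 ± 0.11) rose, with a median of -0.31. At 37 °C with nitrogen 6 were lower in fcp1-452 than in wild type, led by isp7 (-3.22 ± 0.41), gcv1 (-2.15 ± 0.17) and cao2 (-1.40 ± 0.19), and none was higher, with a median of -0.64.

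Of 11 biosynthetic genes whose enzymes use glutamine or glutamate, 10 were measured. Starvation raised 6, led by the arginine genes arg6 (1.05 ± 0.07) and arg4 (0.97 ± 0.11) and by gua2 of GMP synthesis (0.78 ± 0.11), and lowered trp3 of tryptophan synthesis (-0.86 ± 0.08). In the heated mutant 6 of the 10 fell, where 22.1% of all probe sets did, and none rose, led by arg4 (-1.54 ± 0.16) and arg5 (-1.52 ± 0.12), both of carbamoyl phosphate synthesis for arginine, and ade3 of purine synthesis (-0.83 ± 0.12). At 37 °C with nitrogen 5 were lower in fcp1-452 than in wild type, led by arg4 (-1.22 ± 0.16), arg5 (-1.09 ± 0.12) and trp3 (-0.71 ± 0.11). The medians were 0.42, -0.59 and -0.37 in the same order of comparisons.

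Pyrimidine synthesis went against the uracil genes in starvation. Of 9 listed genes 5 were measured, and 4 of these fell and none rose, where 38.2% of all probe sets fell, led by ura4 (-1.07 ± 0.08), ura2 (-0.91 ± 0.08) and ura3 (-0.83 ± 0.07) of the pathway that makes UMP, and the median was -0.83. The only called gene of this list in the heated mutant, and at 37 °C between the strains, was the orotate phosphoribosyltransferase gene ura5 (-0.68 ± 0.14 and -0.47 ± 0.14), 1 of 5 where 22.1% and 19.2% of all probe sets were called lower, with medians of -0.12 and -0.08. Of 11 regulators of nitrogen use and of the TOR kinases, 10 were measured, and starvation raised 8 and lowered none. The largest changes were in gaf1, a GATA factor (2.00 ± 0.18), and in tsc2 (1.60 ± 0.09) and tsc1 (1.44 ± 0.11), whose products restrain TOR complex signalling, with a median of 1.10. In the heated mutant the kinase genes gad8 (0.92 ± 0.16) and gcn2 (0.57 ± 0.10) and the GTPase gene rhb1 (0.71 ± 0.16) rose and the kinase gene psk1 (-0.57 ± 0.13) fell. At 37 °C with nitrogen gad8 (0.81 ± 0.16), rhb1 (0.72 ± 0.16) and gcn2 (0.43 ± 0.10) were higher in fcp1-452 than in wild type and none was lower, with medians of -0.13 in the heated mutant and -0.10 between the strains.

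The 4 uracil genes lie on chromosome I in the order urg2, urg3, urg1, toe1, uck2, fur4 of protein-coding genes in the RefSeq table of assembly ASM294v3, with non-coding RNA genes between them. Toe1 and uck2 were not measured under the annotation used. Gdh1 lies on chromosome III and the others on chromosome I. Around uga1 the measured genes were din1 (0.13 ± 0.12, adjusted p = 0.384), smc5 (0.25 ± 0.09, adjusted p = 0.0481) and dad3 (-2.26 ± 0.11, adjusted p = 3.51e-05) in starvation, against 2.70 for uga1. In the heated mutant with nitrogen they had 0.45 ± 0.17 (din1, adjusted p = 0.0880), -0.14 ± 0.13 (smc5, adjusted p = 0.427) and -0.48 ± 0.15 (dad3, adjusted p = 0.0481). At least 1 non-coding RNA gene overlaps 7 of the 9 genes in that table, uga1 overlaps the coding gene atg43, and gdh1 overlaps lmb1 and tti1. The strand that each probe set reads was not checked, so signal from an overlapping transcript cannot be told apart here.

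Among named probe sets, the genes most like each member over the 12 samples were found by Pearson's r. The r values are a description only, since all genes share the same samples. In urg1, urg2, urg3, fur4, uga1 and cao1 most of the spread lay between -N and +N. In glt1, gdh1 and gln1 it came mainly from the low values of the heated mutant with nitrogen. Closest were css1 for urg1 (0.990), sst2 for urg2 (0.959), sec73 for urg3 (0.976), mug56 for fur4 (0.988), mei2 for uga1 (0.987), dad5 for cao1 (0.995), cut6 for glt1 (0.968), exg1 for gdh1 (0.969) and put4 for gln1 (0.980). The next nearest were sec74 and pub2 for urg1, mrps16 and hht3 for urg2, pan1 and hip3 for urg3, sgo2 and bdp1 for fur4, sep1 and gaf1 for uga1, scp1 and ape4 for cao1, fas1 and rpl15 for glt1, arg5 and cdc22 for gdh1, and lat1 and rar1 for gln1. Their r ran from 0.948 to 0.986. The 9 genes themselves were left out of the search, so it does not show how alike they were to one another.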

How the data were processed

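Polyadenylated RNA was hybridised to Affymetrix arrays per the labels. The deposited values are a ratio per probe set and array. Per the submitters' processing notes RMA was used (no version given). The values themselves showed a median of 1 for each probe set over the arrays of a set. No level, detection call or depth was kept, and the number of arrays limits the precision. The log2 ratios went into limma's lmFit and eBayes (limma 3.58.1, R 4.3.3) with 8 group means and the replicate number as a block (set 1 counted as replicate 1 from its near-duplicate +N arrays, since its titles carry no number), leaving 3 residual degrees of freedom. Before that, each probe set of set 1 was shifted by its mean log2 difference from set 2 in the 4 near-duplicate pairs. The numbers pair the samples: differences between replicates 1 and 2 correlated over all 6 pairs of +N groups (r = 0.636 to 0.863). In data simulated for fcp1-452 at 37 against 26 °C with nitrogen, over 4999 probe sets, 100 of 100 changes of log2 1 and 100 of 100 of log2 2 were recovered, with 12 false calls. The simulation covered that comparison only, none with -N arrays, and its spread is not given here. In the measured data urg2 had -1.94 ± 0.69 there and was not called (limma adjusted p = 0.0709), so an uncalled gene may still differ.

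Names were updated through the RefSeq table of assembly ASM294v3 (2914 identifiers found, 113 names updated). Named besides the 9 genes were up to 3 called genes per list, direction and comparison with the largest change, the 3 nearest genes by Pearson's r, and measured neighbours within 4 places of urg1, fur4 and uga1. Members, lists and tests were chosen with earlier results of these data known. Alternatives were the 16 arrays with a set term, no replicate block, quantile normalization, median centring, a filter on probe sets at the lowest value, set 2 alone, and single samples left out. Leaving out both wild-type +N samples of a replicate was chosen after seeing the data. Promoter sequences were not analysed here.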

Additional observations from a re-analysis of the deposited data

Results flagged for a closer look

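A test of the difference between strains or temperatures was called for 11 values of these genes. None of these was among the calls kept in all alternatives run. Of all probe sets, 4.12% were called higher and 7.68% lower for strain and temperature. For strain and nitrogen 8.84% were called higher and 8.54% lower, and for temperature and nitrogen 19.3% and 17.6%. With nitrogen, the change between 37 and 26 °C differed between fcp1-452 and wild type for glt1 (-1.84 on the log2 scale), gdh1 (-1.30) and gln1 (-1.61), all lower in the heated mutant. The change on starvation differed between fcp1-452 and wild type for urg3 (0.88, larger in the mutant) and cao1 (-0.73, smaller in the mutant), on the average of the temperatures. The change on starvation differed between 37 and 26 °C for glt1 (0.69) and gdh1 (1.03), larger at 37 °C, and for urg1 (-1.09), urg3 (-0.48), uga1 (-0.83) and cao1 (-0.81), smaller at 37 °C on the average of the strains. In single arrays that held for urg3 in wild type alone (0.64 at 37 °C and 1.77 at 26 °C), since fcp1-452 had 2.19 and 1.92, and for cao1 wild type hardly differed (3.49 and 3.56). The tests that involve starvation rest on 1 array per -N group and take their spread from the +N groups.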

How the results depend on the processing

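Of 38 called values of the 9 genes, 12 kept their call in all alternatives run, and no called value changed sign. The 12 were urg1, glt1, gdh1 and gln1 in the heated mutant, glt1 between the strains at 37 °C with nitrogen, the 6 alternative-source genes in starvation, and cao1 at 37 against 26 °C without nitrogen. Where -N arrays were in the fit none was left out, and for that cao1 call leaving out other samples changed only the spread. With the replicate block left out, 3 genes were called between the strains at 37 °C with nitrogen (7 with it), 0 in the interaction of strain and temperature (3), 0 in that of strain and nitrogen (2), 2 in that of temperature and nitrogen (6), 1 between the starved strains (4) and 1 at 37 against 26 °C without nitrogen (2). Quantile normalization gave 3, 0, 0, 5, 0 and 2 in that order, and 3 in heated wild type, as did the 16 arrays with a set term, against 0. Without both wild-type +N samples of replicate 1, or of replicate 2, the counts were 1, 0, 0, 0, 1 and 2, with 1 residual degree of freedom against 3, so fewer samples were behind the spread. Leaving out 1 sample at a time gave 0 to 4 in heated wild type, 2 to 7 between the strains at 37 °C with nitrogen, 0 to 4 for strain and temperature, 0 to 6 for strain and nitrogen, and 3 to 8 for temperature and nitrogen. For the block, the set term and quantile normalization the cause was not tested. The ratios keep no signal over background, so whether a low value such as urg2 in the heated mutant is near it is not known. The background moved too. Over all probe sets, with no replicate block and under quantile normalization beside the main count, calls numbered 340 and 721 beside 1698 between the strains at 37 °C with nitrogen, 7 and 19 beside 590 for strain and temperature, 1 and 0 beside 869 for strain and nitrogen, 325 and 581 beside 1847 for temperature and nitrogen, 362 and 38 beside 1868 between the starved strains, and 809 and 467 beside 2306 for 37 against 26 °C without nitrogen. With no replicate block they numbered 593 beside 1995 in the heated mutant and 0 beside 27 in heated wild type, where quantile normalization gave 385 and the set term 296. The set term gave 933 for strain and temperature.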
